A study of Mus musculus with 6 samples.

Results

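The Bcl2 family of death regulators was followed as 10 genes chosen by name (Bax, Bak1, Bcl2, Bcl2l1, Bcl2l11, Mcl1, Bid, Bbc3, Hrk and Pmaip1), out of 27998 genes counted in single cells of the mouse retina at embryonic day 14. All 10 were found in the gene table, and 67050 cells in 6 libraries were used. There were 3 genotype groups of 2 libraries each. The Bax het Atoh7 null group is heterozygous for Bax and lacks Atoh7, a transcription factor needed for most retinal ganglion cells to form. The Bax null group lacks Bax and is labelled wild type for Atoh7. The Bax null Atoh7 null group lacks both and is called double null below. Every group carries a mutation in Bax, in 1 or both copies, so no group used here is wild type for it. The labels do not say which part of either gene was removed, nor whether a library held 1 retina or several pooled ones. The labels number the libraries but do not say that they came from separate litters or animals, so the p-values below measure only the spread between these libraries.

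The family sets the threshold of the mitochondrial route to cell death. Bax and Bak1 are the effectors, which open pores in the outer mitochondrial membrane and release cytochrome c. Bcl2, Bcl2l1 (Bcl-xL) and Mcl1 are guardians that hold the effectors in check, and the BH3-only proteins Bbc3 (PUMA), Hrk, Bcl2l11 (BIM), Bid and Pmaip1 (NOXA) relieve that check or act on the effectors. In the developing retina many newborn ganglion cells die by this route, and loss of Bax is known to spare them.

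On GRCm38 (GENCODE vM21 gene models, protein coding in all 10 cases) the effectors lie at chr7:45461697-45466898 on the minus strand (Bax) and chr17:27019810-27029009 on the minus strand (Bak1). The guardians lie at chr1:106538178-106714274, minus strand (Bcl2), chr2:152780668-152831728, minus strand (Bcl2l1) and chr3:95658788-95663176, plus strand (Mcl1). The BH3-only genes lie at chr7:16308393-16318205, plus strand (Bbc3), chr5:118164648-118189478, plus strand (Hrk), chr2:128126038-128162547, plus strand (Bcl2l11) and chr6:120891930-120916853, minus strand (Bid). On the same strand Bax overlaps the protein-coding Gm45808, Bcl2 overlaps Mir3473f and Gm37053, and Bid overlaps Gm44260. How reads shared by these genes were counted was not tested. On the opposite strand Bak1 overlaps Ggnbp1, Bid overlaps Bcl2l13 and Gm17812, and Bcl2 overlaps D630008O14Rik. Whether counting used strand is not given in the sources used here. Whether reads of the opposite-strand pairs were told apart is thus not known.

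RefSeq (GRCm38.p6) gave windows from 250 bases before to 50 bases after the start for 9 of the 10 genes. The 3 windows below belong to the BH3-only genes whose ganglion cell values differ between groups later in the text, and the capitals mark a match, read on both strands, to a motif of the stress and forkhead factors listed further below among the regulators. The first is the Hrk window at chr5:118169514-118169813 (plus strand), with TGATGTAA, a match to TGATGNAA, the CARE motif known to be bound by Atf4 and Ddit3. The second is the middle of the 3 Bbc3 windows, chr7:16310011-16310310 (plus strand), with TGTTTAC, the reverse strand of the forkhead motif GTAAACA. The third is the first of the 2 Bcl2l11 windows, chr2:128125788-128126087 (plus strand), with GTAAACA.
Hrk: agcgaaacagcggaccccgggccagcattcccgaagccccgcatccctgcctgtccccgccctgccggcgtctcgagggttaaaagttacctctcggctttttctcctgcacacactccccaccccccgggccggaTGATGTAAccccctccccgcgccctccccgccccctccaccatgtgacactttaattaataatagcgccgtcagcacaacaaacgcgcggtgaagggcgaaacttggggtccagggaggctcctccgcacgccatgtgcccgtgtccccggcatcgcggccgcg
Bbc3: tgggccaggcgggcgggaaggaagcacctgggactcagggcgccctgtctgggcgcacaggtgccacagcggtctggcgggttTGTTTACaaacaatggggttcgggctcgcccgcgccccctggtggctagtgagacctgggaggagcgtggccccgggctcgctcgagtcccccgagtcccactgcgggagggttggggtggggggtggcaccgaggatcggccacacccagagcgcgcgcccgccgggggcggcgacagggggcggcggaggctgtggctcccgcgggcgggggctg
Bcl2l11: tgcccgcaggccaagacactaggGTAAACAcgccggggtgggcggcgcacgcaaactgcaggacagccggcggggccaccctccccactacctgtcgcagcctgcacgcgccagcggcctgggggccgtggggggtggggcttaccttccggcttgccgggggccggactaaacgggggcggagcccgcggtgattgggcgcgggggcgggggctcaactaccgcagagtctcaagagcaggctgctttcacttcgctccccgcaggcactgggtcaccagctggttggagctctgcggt
The CARE motif was found in 3.97% and the forkhead motif in 3.65% of all 32851 windows of this length. The GC content of the 3 windows was 65.7% (Hrk), 74.7% (Bbc3) and 71.0% (Bcl2l11), beside a median of 52.7% over all windows. The AP-1 motif TGANTCA (7.81% of all windows) and the CRE motif TGACGTCA (1.79%) were in no window of a member. The GC box GGGCGG was in 35.7% of all windows and in those of Bax, Bcl2, Bcl2l11, Mcl1, Bid, Bbc3 and Hrk, with 16 matches over the 3 Bbc3 windows. The E-box CANNTG was in 72.3% of all windows. It was in at least 1 window of Bax, Bcl2l1, Bcl2l11, Mcl1, Bbc3 and Hrk, and in none of Bak1, Bcl2 and Bid. These matches are letters in a window and not measured binding.

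The libraries held 9269 to 14730 cells and 22463515 to 66594431 unique molecular identifiers (UMIs, 1 per captured RNA molecule). The Bax null libraries stood apart from the other 4: they had a median of 5660.5 and 6804 UMIs per cell against 1634 to 2632, a mitochondrial share of 3.80% and 3.90% against 1.06% to 1.15%, and mt-Atp6 at 8740 and 9020 CPM (UMIs of a gene per 1000000 UMIs) against 3.74 to 4.55, while mt-Nd1 lay between 3381 and 4182 CPM in all 6. Genotype and the handling of these libraries cannot be told apart in any comparison with the Bax null group. The 2 libraries labelled double null shared 2596 cell barcodes, against 126 to 223 in each of the other 14 pairs of libraries, and 89.45% of the shared barcodes had the same cell type in both, where independent labels would give 50.37%. Several member results that rest on these 2 libraries are therefore also given without those barcodes, and the others are not. Cell types are the authors' labels: progenitors, neurogenic cells, ganglion cells, cones and horizontal cells. The marker list of each type was highest in that type in 6 of 6 libraries, and the horizontal label also held amacrine markers at 1045 to 1628 CPM. The horizontal and amacrine lists share Tfap2b, so these sums are not independent. An endothelial list was also highest in the horizontal label, at 249 to 379 CPM.

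Bax was the check on the labels. Over all cells it stood at 143.5 and 107.7 CPM in the Bax het Atoh7 null libraries, 17.1 and 15.0 in the Bax null libraries, and 47.7 and 11 in those labelled double null. The library labelled double null replicate 1 thus held Bax at more than the level of every other library labelled null. Whether it holds cells that carry Bax or has a wrong label was not tested, and this limit applies to every value of the double null group. Its neighbour Ftl1, 1812 bases away and coding for ferritin light chain, was also highest in the Bax het Atoh7 null libraries and next in the library labelled double null replicate 1, at 1682 and 1272, 92.9 and 143.6, and 493.9 and 40.3 CPM in the same order of groups. In the library labelled double null replicate 1, Bax stood at 81.99 CPM in the 5986 cells with a Ftl1 UMI and at 17.8 CPM in the 8744 without one. A 3′ tag outside a deleted part checks nothing, and the extent of the deletion is not given.

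Across cell types the family split by gene and not by role. Bcl2, Bak1 and Bcl2l11 were highest in progenitors in 6 of 6 libraries, Bcl2l1 in cones in 6 of 6, and Bbc3 and Hrk in ganglion cells in 6 of 6. Levels below are CPM of UMIs summed per library and type and are compared within a gene only, and means over libraries carry the SD of 6 libraries from 3 genotypes. Bax, Bid, Hrk and Pmaip1 are among the genes the authors marked as used to order or cluster the cells, so their differences between types are a description with no test. The other 6 were tested within libraries by edgeR's quasi-likelihood test, with p-values adjusted over 11315 genes, and the plot of all levels shows every library.

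**Figure D1:**
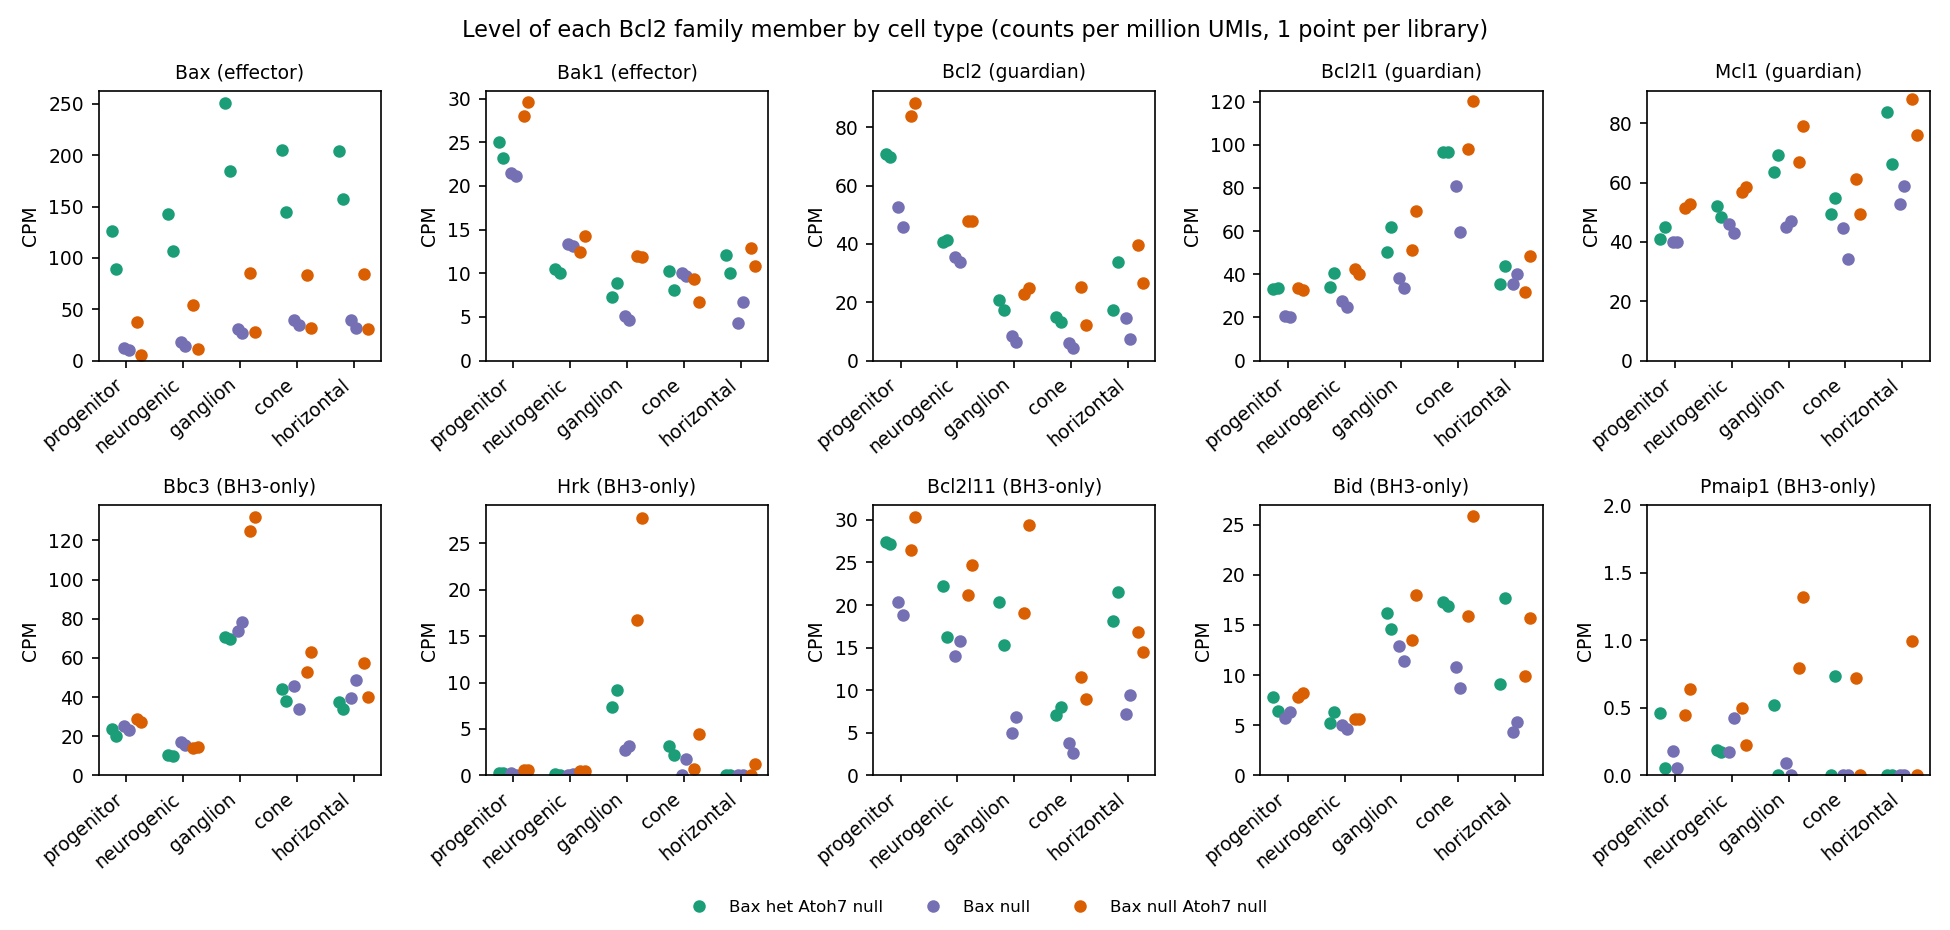
Level of each of the 10 members in 5 cell types (CPM on the vertical axis, 1 panel per gene, 1 point per library coloured by genotype group). Bbc3 and Hrk are highest in ganglion cells, Bcl2l1 in cones and Bcl2 in progenitors in each of the 6 libraries.

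Among the effectors, Bax was lowest in progenitors in 6 of 6 libraries. Its progenitor levels were 126.2 and 89.0 CPM in the Bax het Atoh7 null libraries, 11.8 and 10.7 in the Bax null libraries, and 37.9 and 5.83 in those labelled double null. Its ganglion levels were 250.8 and 184.9, 30.3 and 26.7, and 85.2 and 28.1 CPM in the same order. Ganglion cells thus held more Bax than progenitors of their own library in every case. Bak1, the other pore former, ran the opposite way, at 24.8 ± 3.5 CPM (SD, n = 6) in progenitors, 12.3 ± 1.7 in neurogenic cells, 9.49 ± 3.3 in horizontal cells, 9.01 ± 1.4 in cones and 8.30 ± 3.2 in ganglion cells. The last 3 lay within each other's spread. In ganglion cells Bak1 stood at 7.31 and 8.87, 5.15 and 4.68, and 11.9 and 11.9 CPM in the 3 groups, all below the progenitor range of 21.2 to 29.7. The ganglion minus progenitor log2 fold change was -1.83 (SE 0.14, adjusted p = 7.7e-13).

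Among the guardians, Bcl2 and Bcl2l1 ran in opposite directions. Bcl2 stood at 70.9 and 70.0 CPM in progenitors of the Bax het Atoh7 null libraries, 52.6 and 45.8 in the Bax null libraries, and 83.8 and 88.4 in those labelled double null. In ganglion cells it stood at 20.9 and 17.4, 8.5 and 6.51, and 22.7 and 25.0 CPM. No ganglion value reached the lowest progenitor value, and the ganglion minus progenitor log2 fold change was -2.29 (SE 0.15, adjusted p = 3.5e-14). Bcl2 fell further in cones (-2.58) than in horizontal (-1.72) and neurogenic cells (-0.73), each called against progenitors, although differences among these 3 fold changes were not tested. Its means were 68.6 ± 17 CPM in progenitors, 41.2 ± 6.0 in neurogenic cells, 23.2 ± 12 in horizontal cells, 16.8 ± 7.7 in ganglion cells and 12.7 ± 7.4 in cones (SD, n = 6), and the last 3 overlapped.

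Bcl2l1, the guardian known as Bcl-xL, was highest in cones. Its cone levels were 96.8 and 96.7 CPM in the Bax het Atoh7 null libraries, 81.1 and 59.5 in the Bax null libraries, and 98.2 and 120.2 in those labelled double null, and its progenitor levels were 33.3 and 33.4, 20.8 and 20.3, and 33.7 and 32.6 CPM. The lowest cone value lay above every progenitor value. Cones held 2.81-fold more Bcl2l1 than progenitors (log2 fold change 1.49, SE 0.09, adjusted p = 3.2e-15) and ganglion cells 1.67-fold more (0.74, SE 0.08, adjusted p = 1e-09). The neurogenic difference was 0.23, also called, and the horizontal difference of 0.35 (adjusted p = 0.0044) was 0.14 (adjusted p = 0.34) in the 4 Atoh7 null libraries alone.

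Mcl1, a guardian with a short-lived protein, differed from progenitors by at most 0.52 on the log2 scale. Its means were 45.1 ± 5.8 CPM in progenitors, 49.0 ± 9.2 in cones, 50.8 ± 6.1 in neurogenic cells, 61.8 ± 13 in ganglion cells and 71.1 ± 14 in horizontal cells (SD, n = 6), with neighbours in that order within each other's spread. In ganglion cells the values were 63.7 and 69.2, 45.0 and 47.0, and 66.9 and 79.1 CPM in the 3 groups. Ganglion cells held 1.28-fold more than progenitors (log2 fold change 0.36, SE 0.07, adjusted p = 5.8e-05) and horizontal cells 1.43-fold more (0.52). Cones (-0.05, adjusted p = 0.64) and neurogenic cells (0.13, adjusted p = 0.10) did not pass the test.

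Bbc3, which binds every guardian, had the widest range of the tested BH3-only genes. Its ganglion levels were 70.5 and 69.6 CPM in the Bax het Atoh7 null libraries, 73.9 and 78.2 in the Bax null libraries, and 125.0 and 131.8 in those labelled double null. Its neurogenic levels, the lowest of the 5 types in 6 of 6 libraries, were 10.6 and 9.85, 17.3 and 15.7, and 13.9 and 14.5 CPM. The 2 types did not overlap. Ganglion cells held 6.19-fold more Bbc3 than neurogenic cells (log2 fold change 2.63, SE 0.11, adjusted p = 3.1e-18) and 3.43-fold more than progenitors (1.78, SE 0.10, adjusted p = 4.1e-16). Neurogenic cells in turn lay below progenitors (-0.85), and cones (0.70) and horizontal cells (0.67) above them, all called. Cone and horizontal means of 46.2 ± 10 and 42.9 ± 8.8 CPM (SD, n = 6) lay within each other's spread.

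Hrk, a BH3-only gene known mainly from neurons, was counted in 275 UMIs in all, of which 208 came from ganglion cells, 43 from progenitors, 14 from cones, 9 from neurogenic cells and 1 from horizontal cells. Its ganglion UMIs were 14 and 26 in the Bax het Atoh7 null libraries, 29 and 34 in the Bax null libraries, and 42 and 63 in those labelled double null, which is 7.31 and 9.23, 2.77 and 3.12, and 16.7 and 27.7 CPM. Bcl2l11 stood at 25.1 ± 4.5 CPM in progenitors, 19.0 ± 4.2 in neurogenic cells, 16 ± 9.1 in ganglion cells, 14.6 ± 5.4 in horizontal cells and 7.03 ± 3.3 in cones (SD, n = 6). It was lowest in cones in 6 of 6 libraries. The ganglion minus progenitor difference of -0.99 (SE 0.17, adjusted p = 4e-06) was called, and the ganglion minus neurogenic difference of -0.55 was -0.04 (adjusted p = 0.81) in the 4 Atoh7 null libraries alone. Bid, which links death receptors to mitochondria, stood at 15.9 ± 6.0 CPM in cones, 14.4 ± 2.4 in ganglion cells, 10.4 ± 5.4 in horizontal cells, 7.06 ± 1.0 in progenitors and 5.41 ± 0.58 in neurogenic cells (SD, n = 6). Pmaip1, a target of p53, had 62 UMIs in the 6 libraries together and 0.17 to 0.46 CPM in the types, and was too low for any test.

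Of the 6 members with a test, 3 were higher and 3 lower in ganglion cells than in progenitors. Over all genes tested in that comparison 78.2% were called, 38.0% higher and 40.2% lower, so a call as such was common. Against progenitors, 2 were higher and 3 lower in cones (68.5% of all genes called, 33.4% higher and 35.1% lower), 3 higher and 3 lower in horizontal cells (66.1%, 32.0% and 34.1%), and 1 higher and 4 lower in neurogenic cells (55.0%, 26.5% and 28.5%). In ganglion against neurogenic cells 3 were higher and 3 lower (71.9% of all genes called, 34.9% higher and 36.9% lower). The 6 ganglion minus progenitor calls passed in 14 of 14 other settings. Of the ganglion minus neurogenic calls, Bcl2, Bcl2l1 and Bbc3 passed in 14 of 14, Bak1 in 13, Mcl1 in 12 and Bcl2l11 in 11.

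**Figure D2:**
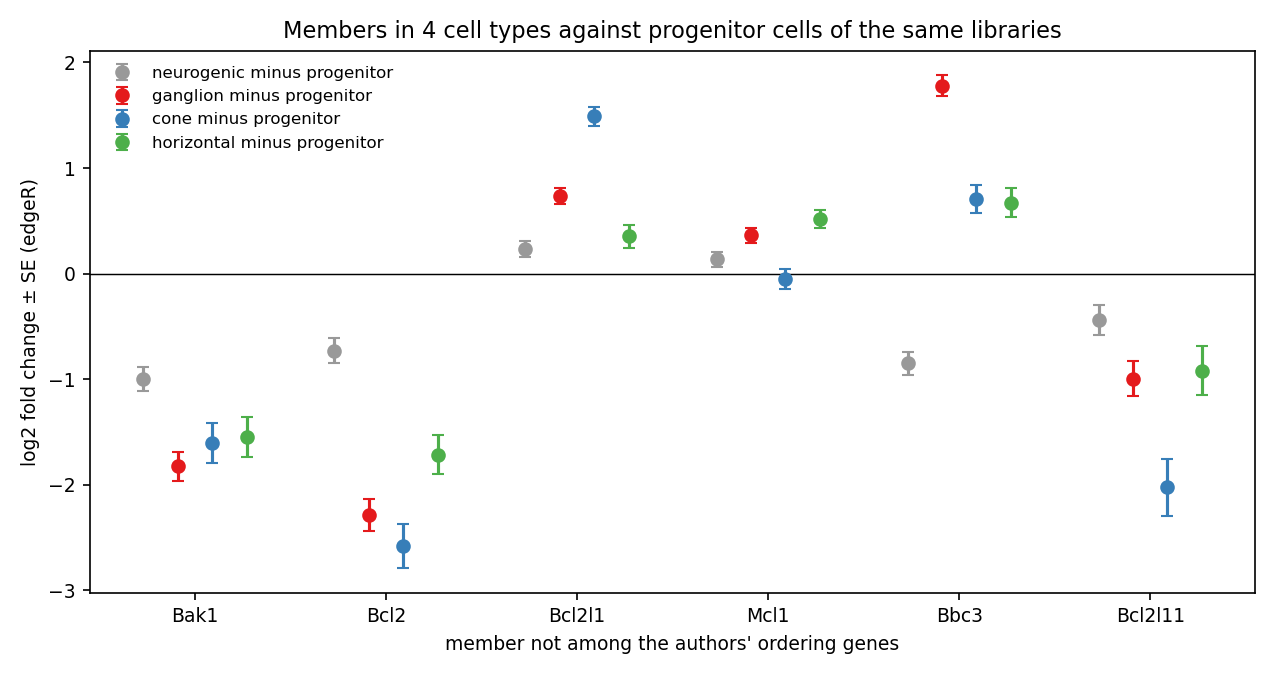
Log2 fold change with SE (edgeR, vertical axis) of the 6 tested members in 4 cell types against progenitors of the same 6 libraries. Bcl2 and Bak1 lie below 0 in all 4 types, Bcl2l1 above 0 in all 4, and Bbc3 below 0 in neurogenic cells and above 0 in the other 3.

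Both Atoh7 null groups were set against each other to ask what goes with losing the second Bax copy when Atoh7 is absent; values are double null minus Bax het Atoh7 null. In ganglion cells Bbc3 and Hrk rose and Bax fell, and no other member was called. Fits were made per cell type over all 6 libraries with edgeR's quasi-likelihood test, with TMM scaling (a factor per library that centres most genes at no change) and p-values adjusted over the 8960 to 13396 genes tested in a type. Of 42 tests of a member in a type, 2 were called higher and 4 lower, where 1.86% of all tests of a gene in a type were called, 0.0814% higher and 1.78% lower (with library totals 2 and 4 of the members, and 0.244% and 1.33% of all tests). Among ganglion cell tests the share was 2.34% (0.246% higher, 2.10% lower).

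Bbc3 stood at 125.0 and 131.8 CPM in ganglion cells of the libraries labelled double null, as given above, and at 70.5 and 69.6 in those of the Bax het Atoh7 null libraries. Both values of one group lay above both of the other. On the TMM scale the levels were 109 ± 0.95 against 64.6 ± 0.19 CPM (SD, n = 2), a 1.69-fold rise (log2 fold change 0.76, SE 0.11, edgeR adjusted p = 0.0023), and the call passed in 16 of 16 other settings. Without the shared barcodes the log2 fold change was 0.83 (adjusted p = 0.0087). Bbc3 was not called in progenitors (0.26), neurogenic cells (0.39), cones (0.38) or horizontal cells (0.39).

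Hrk had 7.31 and 9.23 CPM in ganglion cells of the Bax het Atoh7 null libraries and 16.7 and 27.7 in the others. The groups did not overlap, and on the TMM scale 18.8 ± 6.0 against 7.63 ± 1.3 CPM (SD, n = 2) gave a 2.39-fold rise (log2 fold change 1.26, SE 0.29, edgeR adjusted p = 0.043). This call passed in 5 of 16 other settings: it was lost without the shared barcodes (0.97, adjusted p = 0.21), without the library labelled double null replicate 2 (0.89, adjusted p = 0.20) and without Bax het Atoh7 null replicate 1 (1.12) or replicate 2 (1.48).

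Bax, whose genotype defines the contrast, was 48.6 ± 36 against 201 ± 42 CPM on the TMM scale in ganglion cells (SD, n = 2; log2 fold change -2.02, SE 0.30, edgeR adjusted p = 0.0034). The size rested on the library labelled double null replicate 1: the value was -3.08 without it and -1.43 without replicate 2. It was also called in cones (-1.58), horizontal cells (-1.68) and neurogenic cells (-1.93), with -2.29 in progenitors (adjusted p = 0.082). All 4 calls were lost with DESeq2.

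The guardians showed no call in ganglion cells in this comparison. Mcl1 differed by 0.00 (SE 0.12), Bcl2l1 by -0.04 (SE 0.16) and Bcl2 by 0.22 (SE 0.21) on the log2 scale. Among the remaining members, Bak1 differed by 0.41 (SE 0.27), Bcl2l11 by 0.35 (SE 0.26) and Bid by -0.08 (SE 0.23). With 2 libraries a group these standard errors are wide, and a missed threshold does not show equal levels. The groups did not overlap in CPM for 5 of the 9 members tested, beside 46.2% of all genes. Outside ganglion cells 2.01% of genes were called in progenitors, 1.77% in neurogenic cells, 1.46% in cones and 1.61% in horizontal cells, and apart from Bax no member was.

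**Figure D3:**
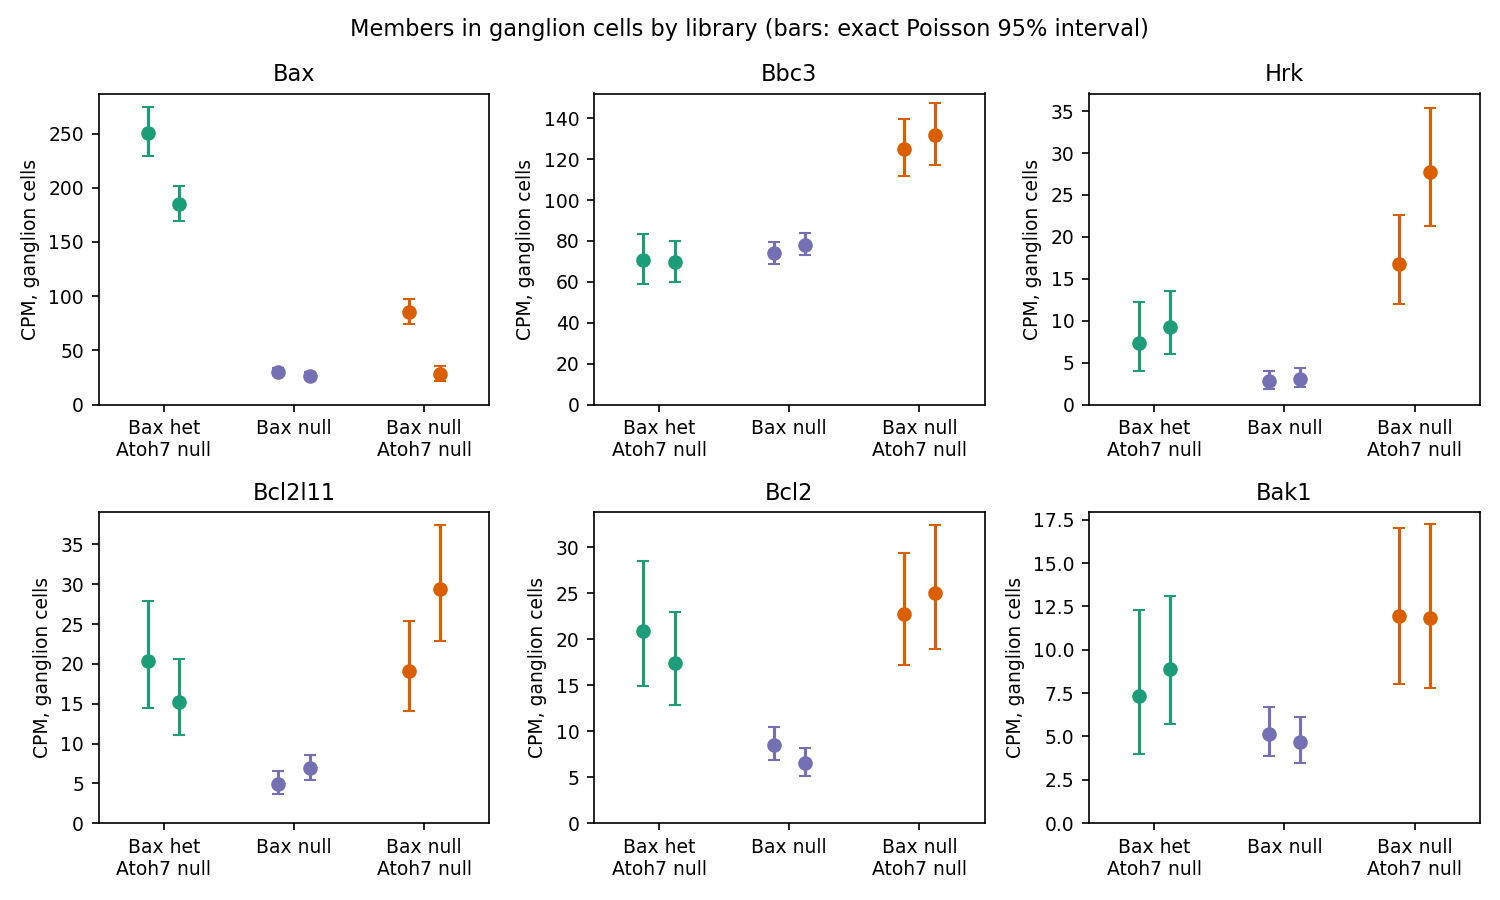
Level of Bax, Bbc3, Hrk, Bcl2l11, Bcl2 and Bak1 in ganglion cells by library (CPM, vertical axis). Bars are exact Poisson 95% intervals, which cover counting error only, and colours are genotype groups. The 2 libraries labelled double null lie above the other 4 for Bbc3, Hrk, Bcl2 and Bak1, and Bax is highest in the 2 Bax het Atoh7 null libraries.

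Markers of other types in the ganglion sums were partly higher in the libraries labelled double null than in the Bax het group. The ganglion list summed to 7935 and 9003 CPM in the Bax het Atoh7 null libraries and 8794 and 10532 in the libraries labelled double null, the progenitor list to 1006 and 969 against 1278 and 1037, and the neurogenic list to 1918 and 1646 against 1765 and 1911. The horizontal list summed to 1351 and 1275 against 1403 and 1535, the cone list to 73.1 and 76.7 against 96.7 and 94.0, and the amacrine list to 124 and 122 against 101 and 134. The progenitor, horizontal and cone lists thus lay above in both libraries labelled double null, and their part in the Bbc3 and Hrk values was not tested. Haemoglobin genes of red blood cells varied most, at 86.7 and 18.1 against 196.6 and 4.4, with no order by group. Ganglion cells numbered 667 of 9622 and 1056 of 11345 cells against 1153 of 14730 and 1138 of 11816.

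The comparison of the libraries labelled double null with Bax null asks what the loss of Atoh7 goes with when Bax is absent, and it carries the difference in library handling given above. In ganglion cells Hrk, Bcl2l11, Bcl2 and Bak1 were higher without Atoh7 and Bbc3 was not called. Hrk stood at 18.8 ± 6.0 against 3.81 ± 0.37 CPM on the TMM scale (SD, n = 2), a 4.87-fold difference (log2 fold change 2.28, SE 0.26, edgeR adjusted p = 1.4e-05). Bcl2l11, which had 19.1 and 29.4 CPM against 4.96 and 6.88 before TMM scaling, differed 2.65-fold (1.41, SE 0.24, adjusted p = 0.00036). Bcl2 differed 2.09-fold (1.06, SE 0.19, adjusted p = 0.00049), with 22.7 and 25.0 against 8.5 and 6.51 CPM. These 3 calls passed in 16 of 16 other settings, leaving out the shared barcodes included. Bak1, at 0.67 (SE 0.23, adjusted p = 0.027), passed in 8 of 16.

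Scaling weighs on every contrast with the Bax null group. Dividing by library totals in place of TMM moved the median of all genes to between 0.567 and 0.637 on the log2 scale in the 5 types for the libraries labelled double null, and to between 0.471 and 0.539 for the Bax het group, each relative to Bax null. Between the 2 Atoh7 null groups the median was 0.087 to 0.119. Bbc3 in ganglion cells, at 0.15 (adjusted p = 0.19) against Bax null with TMM, was 0.76 with library totals. The TMM values below are changes relative to that median.

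In the other types, Bcl2 was higher in the libraries labelled double null than in Bax null in cones (1.35, adjusted p = 0.032) and horizontal cells (1.11, adjusted p = 0.032), and both calls were lost with DESeq2. Bbc3 was lower in neurogenic cells (-0.80, adjusted p = 0.00065) and progenitors (-0.40), Bak1 in neurogenic cells (-0.58) and Mcl1 in progenitors (-0.25). With library totals Bbc3 in progenitors (0.22), Bak1 in neurogenic cells (0.0038) and Mcl1 in progenitors (0.38, called in this direction) changed sign, and Bbc3 in neurogenic cells was -0.22 and no longer called. Over the 42 tests 6 were higher and 4 lower, where 43.7% of all tests were called (21.3% higher, 22.4% lower). With library totals 30 member tests were higher and 0 lower, and 56.5% of all tests were higher and 6.93% lower. In ganglion cells 4 of 9 were higher and none lower, where 52.7% of genes were called (26.2% higher, 26.5% lower). The groups did not overlap in CPM for 8 of 9 members, beside 86.0% of all genes. The share of genes called was 53.9% in progenitors, 47.3% in neurogenic cells, 28.1% in cones and 29.2% in horizontal cells.

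The contrast of the Bax het group with Bax null spans both genes. Bax was higher in all 5 types, 6.61-fold in progenitors (log2 fold change 2.72) and 5.40-fold in ganglion cells (2.43; 201 ± 42 against 36.8 ± 2.8 CPM on the TMM scale, SD, n = 2), with 2.44 in neurogenic cells, 1.79 in cones and 1.91 in horizontal cells, in 16 of 16 other settings each. In ganglion cells Bcl2 (0.84, SE 0.20, edgeR adjusted p = 0.0042), Bcl2l11 (1.06, SE 0.26, adjusted p = 0.0051) and Hrk (1.02, SE 0.34, adjusted p = 0.023) were higher, and Bbc3 was lower with TMM (-0.61, SE 0.10, adjusted p = 0.00028), though with library totals it was -0.12 (adjusted p = 0.34). Bbc3 was also lower in neurogenic cells (-1.20), and this call passed in 16 of 16 settings, with -0.69 under library totals. The other calls of a lower level were Bbc3 in horizontal cells (-0.76) and progenitors (-0.66), Bak1 in neurogenic cells (-0.88) and progenitors (-0.35), Mcl1 in neurogenic cells (-0.33) and progenitors (-0.43), and Bcl2 in neurogenic cells (-0.27). With library totals these 7 were not called, and Bak1 in progenitors (0.18), Mcl1 in neurogenic cells (0.18) and progenitors (0.11) and Bcl2 (0.24) changed sign.

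Over the 42 tests of the Bax het group relative to Bax null 8 were higher and 9 lower, where 43.0% of all tests were called (21.1% higher, 21.8% lower). With library totals 20 member tests were higher and 1 lower, and 49.8% of all tests were higher and 6.53% lower. Ganglion cells had 4 of 9 higher and 1 lower, beside 50% of all genes called (25.0% in each direction). The groups did not overlap in CPM for 9 of 9 members, beside 83.2% of all genes. The share called was 53.1% in progenitors, 47.1% in neurogenic cells, 27.5% in cones and 30.2% in horizontal cells. Each contrast with Bax null uses the same 2 Bax null libraries. In their ganglion cells the amacrine list summed to 13 and 12 CPM, the horizontal list to 531 and 523, the progenitor list to 458 and 305, the neurogenic list to 973 and 935 and the haemoglobin genes to 489.2 and 426.3, and the part of these cells in the member values was not tested.

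Whether the ganglion minus progenitor difference of a member itself differed between groups was tested within libraries, where a factor shared by all cells of a library cancels. Between the libraries labelled double null and Bax null, the ganglion minus progenitor log2 difference of 5 of 9 members was shifted upward in the former (edgeR, 13670 genes; 15.7% of genes called, 8.15% in that direction). For Bcl2l11, Bcl2 and Bak1, which are lower in ganglion cells, that means a smaller deficit, and for Bbc3 and Mcl1 a larger excess. Bcl2l11 differed most (1.53 on the log2 scale, SE 0.23, adjusted p = 1.5e-06) and was called in 11 of 11 other settings. It was followed by Bcl2 (0.91, SE 0.19, adjusted p = 0.00036), Bak1 (0.89, SE 0.26, adjusted p = 0.013), Bbc3 (0.57, SE 0.10, adjusted p = 5.1e-05) and Mcl1 (0.32, SE 0.11, adjusted p = 0.034). Bcl2 and Bbc3 were called in 10 of 11 other settings, Bak1 in 7 and Mcl1 in 3, and DESeq2 called 2 of the 5. Between Bax het Atoh7 null and Bax null 3 of 9 were called, Bcl2l11 (1.12, called in 10 of 11 other settings), Bcl2 (0.86, 10) and Mcl1 (0.47, 9), where 15.2% of genes were, 7.40% in that direction. Between the libraries labelled double null and Bax het Atoh7 null 0 of 9 were called with edgeR (0.102% of all genes) and 0 with DESeq2, and 2 had an unadjusted p under 0.05. Bbc3 was at 0.49 (SE 0.13, adjusted p = 0.30) there. The rise of Bbc3 in ganglion cells given above is thus not shown to differ from its change in progenitors.

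The authors' deposited clusters divided the ganglion cells into 20 groups. With the cells of all libraries pooled, a single one, cluster 62, held the highest level of the 5 BH3-only members and of Bak1. Not all of these members were higher there in each library, as given below. Clusters were made from these cells, with Bid and Hrk among the marked genes, so what follows is a description. Cluster 62 had 666 cells, and it made up 10.9% and 11.3% of ganglion cells in the Bax het Atoh7 null libraries, 2.4% and 2.0% in the Bax null libraries, and 16.6% and 18.4% in those labelled double null. Bbc3 stood there at 289.0 CPM, with 107.5 in the next cluster, a median of 74.4 and a lowest value of 25.3. Hrk stood at 57.8 CPM (next 42.8, median 1.23), Bcl2l11 at 40.7 (next 14.9) and Bid at 27.3 (next 18). Bak1 stood at 13.4 (next 11.7), and Pmaip1 at 1.61, from 3 UMIs of a single library. The clusters with most ganglion cells were partly shared by the 2 Atoh7 null groups and not by Bax null: clusters 46, 53 and 63 held 51.0% of those of Bax het Atoh7 null, clusters 62, 53 and 46 held 49.7% of those labelled double null, and clusters 9, 19, 44, 92 and 67 held 50.6% of those of Bax null.

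Bbc3 within cluster 62 was 209.1 and 276.1 CPM in the Bax het Atoh7 null libraries, 110.9 and 143.7 in the Bax null libraries, and 382.3 and 424.9 in those labelled double null. In the remaining ganglion cells it was 52.5 and 43.2, 73.0 and 76.9, and 68.8 and 67.1 CPM. In CPM, the libraries labelled double null thus held more Bbc3 than Bax het Atoh7 null both inside and outside the cluster. They also had a larger share of cells inside it. Whether the difference outside the cluster holds on the TMM scale was not tested. Hrk was 45.5 and 50.2, 7.9 and 18.5, and 68.9 and 109.3 CPM inside against 2.4 and 4.0, 2.6 and 2.8, and 5.3 and 9.7 outside. Bcl2l11 was 22.7 and 31.4, 0 and 9.3, and 33.3 and 106.8 CPM inside against 20.1 and 13.2, 5.1 and 6.8, and 16 and 12.3 outside. The 106.8 came from 1 library, and in the other 5 the inside value was at most 33.3. Without the shared barcodes the libraries labelled double null had 16.9% and 18.6% of ganglion cells in the cluster. Bbc3 was then at 405.0 and 490.3 CPM inside and 67.6 and 54.1 outside. That 54.1 lay close to the 52.5 of Bax het Atoh7 null replicate 1. Hrk was then at 66.7 and 101.7 CPM inside and at 2.79 and 3.38 outside, where its values overlapped those of Bax het Atoh7 null.

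**Figure D4:**
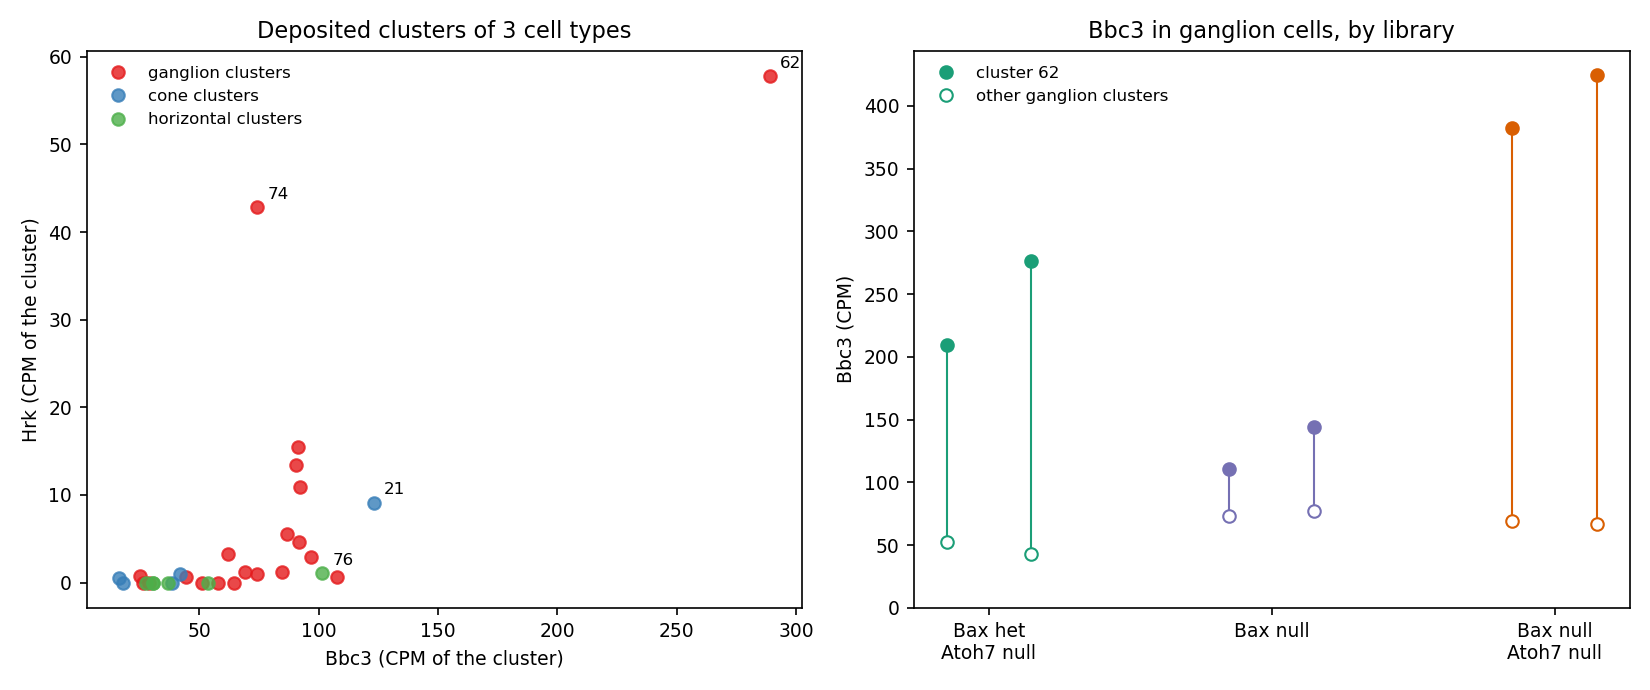
Left, Hrk against Bbc3 (CPM of a cluster on both axes), 1 point per deposited cluster of ganglion cells, cones and horizontal cells; cluster 62 of the ganglion cells is the highest on both axes, at 289.0 CPM of Bbc3. Right, Bbc3 in ganglion cells of each library inside and outside that cluster, with the inside value above the outside value in 6 of 6 libraries.

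Of the regulators of BH3-only genes, Jun (106.6 to 696.8 CPM inside against 60.5 to 232.8 outside), Ddit3 (46.4 to 606.9 against 28.5 to 93.6), Atf4 (176.2 to 522.4 against 141.1 to 222.0) and Mapk10 were higher in cluster 62 in 6 of 6 libraries. Jun and Mapk10 (JNK3) belong to the axon stress route of neurons, and Atf4 and Ddit3 (CHOP) to the integrated stress response. Trib3, a target of Ddit3, was higher in 5 of 6, as were Mdm2 and Map3k12. Of the other regulators, Foxo3 was higher in 4, Trp53 and Foxo1 in 2 each, E2f1 in 1 and Trp73 in 0. The share of all genes higher in cluster 62 in 6 of 6 libraries is not given here. Of the members, Bbc3, Hrk and Bid were higher inside cluster 62 in 6 of 6 libraries, and Bcl2l11 in 5. Bak1 and Bcl2l1 were higher in 4 each, Bcl2 in 3, and Bax, Mcl1 and Pmaip1 in 1 each. Every type has a cluster with the highest Bbc3. Clusters 62, 21 and 76 are those of ganglion cells, cones and horizontal cells, so a higher Bbc3 inside them follows in part from the choice. In cones, cluster 21 with 773 cells had Bbc3 at 123.1 CPM (next 41.8) and Hrk at 9.12 (next 0.95). The cluster held 1702 UMIs per cell, the fewest of the cone clusters, against 2049 to 2564 in the others. Over the 6 libraries Bbc3 was 81.8 to 197.0 CPM inside it against 17.6 to 34.9 outside, Ddit3 198.6 to 328.7 against 64.1 to 98.5, and Trib3 15.6 to 57.0 against 0.9 to 5.7. Cluster 76 of the horizontal cells, with 419 cells, had Bbc3 at 63.1 to 160.8 CPM inside against 24.1 to 39.6 outside, with Ddit3 higher in 3 of 6 libraries, Atf4 in 2 and Jun in 0.

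The other genes of the pathway were read from 3 lists. In ganglion cells, 2 of 11 measured regulators of BH3-only genes rose in the libraries labelled double null against Bax het Atoh7 null and none fell, where 0.246% of all genes were called higher and 2.10% lower. They were Ddit3 (153 ± 12 against 93.4 ± 16 CPM on the TMM scale, SD, n = 2; log2 fold change 0.73, edgeR adjusted p = 0.0062) and Atf4 (220 ± 28 against 158 ± 8.7; 0.48, adjusted p = 0.037). The list's median log2 fold change was 0.19, beside 0.00 over all genes tested. DESeq2 called 1 of the 11 regulators. Values of Ddit3 and Atf4 without the shared barcodes are not given here. With edgeR 0 of 7 other family genes and 0 of 13 genes acting at or after permeabilisation (cytochrome c, Diablo and the like) were called, where 0 and 3 had an unadjusted p under 0.05, and DESeq2 called 0 of either list. Elsewhere in this comparison a single list gene was called, Bcl2l12, lower in neurogenic cells (-0.52) and progenitors (-0.41). Both calls were lost with library totals (-0.45, adjusted p = 0.092, and -0.31, adjusted p = 0.16).

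Against Bax null, 5 of 11 regulators were higher and none lower in ganglion cells of the libraries labelled double null, led by Trib3 (21.7 ± 2.4 against 1.27 ± 0.11 CPM on the TMM scale, SD, n = 2; log2 fold change 4.06), Ddit3 (2.0) and Mdm2 (1.72), the ubiquitin ligase of p53. The list's median was 1.08. Over all ganglion cell genes 26.2% were higher and 26.5% lower, and with library totals 60.8% were higher. Of the other family genes 1 of 7 was higher and 3 lower (Bnip3l -1.11, Bcl2l12 -1.01 and Bad -0.77), and of the later genes 2 of 13 were higher and 4 lower (Cycs -2.73, Tmbim6 1.15 and Aifm1 -0.84). With library totals Bcl2l12 (-0.40, adjusted p = 0.24), Bad (-0.16, adjusted p = 0.19) and Aifm1 (-0.23, adjusted p = 0.19) were not called. In the Bax het group relative to Bax null 5 of 11 regulators were higher and 1 lower (Trib3 3.29, Mdm2 1.62 and Foxo3 1.34), 2 of 7 other family genes lower (Bnip3l -1.01, Bad -0.67), and 1 of 13 later genes higher and 3 lower (Cycs -2.20, Tmbim6 0.97 and Vdac2 -0.46), where 50% of all genes were called. With library totals Bad (-0.18, adjusted p = 0.15) and Vdac2 (0.03, adjusted p = 0.85) were not called, and Vdac2 changed sign. Over all cells Cycs, which codes for cytochrome c, stood at 318.7 and 311.5 CPM in the Bax null libraries, those with the higher mitochondrial share, and at 75.8 to 109.2 in the other 4.

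Between types, 6 of 11 regulators were higher and 5 lower in ganglion cells than in progenitors (Mapk10 2.45, Trib3 2.24 and Foxo1 -1.78 on the log2 scale), 4 of 7 other family genes higher and 1 lower (Bcl2l12 -2.42, Bnip3 0.30 and Bnip3l 0.19), and 5 of 14 later genes higher and 7 lower. Over all genes 38.0% were higher and 40.2% lower in that comparison. Among the later genes Xiap (-0.79), a caspase inhibitor, was lower. In cones the regulators Ddit3 (1.93), Trib3 (1.86) and Atf4 (1.06) were higher than in progenitors. In ganglion against neurogenic cells Trib3 (3.84), Mapk10 (2.94) and Ddit3 (1.62) led the regulators, and Casp9 (1.03), the initiator caspase, was higher.

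Genes with the most similar pattern over the 30 sums of a library and type were ranked by Pearson's r of log2(CPM + 1) after each library's mean was taken off. These r values are a description, as the 5 sums of a library share its depth. Nearest to Bbc3 were Thra (0.963), Acat1 (0.953) and Ttll1 (0.943), and to Bcl2l1 they were Cntn1 (0.970), Gm14703 (0.965) and Syp (0.962). Nearest to Bcl2 were Stxbp6 (0.976), Nr2f1 (0.966) and Cox4i2 (0.962), to Bax Dusp4 (0.942), Scg5 (0.940) and Mark4 (0.938), and to Bak1 Aldh1a3 (0.923), Crb2 (0.921) and Dapl1 (0.919). For Bcl2l11 they were Kdr (0.915), Nkd1 (0.914) and Cdk6 (0.906), for Mcl1 Tfap2b (0.910), Tmem200a (0.891) and Mllt4 (0.885), and for Bid Pja1 (0.906), Ccng1 (0.900) and Casp9 (0.900). Among the members themselves Bcl2 ran with Bcl2l11 (0.87) and Bak1 (0.81) and against Bax (-0.88) and Bcl2l1 (-0.83), and Bid ran with Bbc3 (0.81).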

How the data were processed

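Single-cell RNA was captured with a 10x Genomics 3′ v2 kit, per the labels' protocols. The submitters' processing notes name Cell Ranger 1.2.1 and the mm10 build. The deposited values are UMI counts per gene and cell, made by the authors, with a deposited cell type and cluster for each cell. A further 26078 cells (28.0%) of 2 libraries were not used here. UMIs were summed per library and type, with 22463515 to 66594431 UMIs a library, and tested with edgeR 4.0.16 in R 4.3.3 (filterByExpr, TMM, quasi-likelihood F test, Benjamini-Hochberg adjustment over all genes of a fit, threshold 0.05). Genotype fits had no block, and type and interaction fits were blocked by library. An exact permutation test of 2 against 2 libraries cannot go below 0.33, so none was used. CPM intervals are exact Poisson 95% intervals, the floor of a zero count is 3 UMIs, and both cover counting error only. Alternatives were DESeq2 1.42.0, its size factors, no filter, a replicate block and fewer libraries. For genotype fits, each sum of a library and type was also thinned to the smallest total of that type. Further alternatives left out cells under 1000 UMIs or the top 8% of Scrublet scores (scanpy 1.11.5). Leaving out shared barcodes and using library totals were chosen after seeing the data. Doublets were kept otherwise.

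Members and lists were chosen with earlier results of these data known. Named were the 10 members, up to 3 called genes with the largest change and at least 5 CPM per list, and the 3 most similar genes per member at 5 CPM or more. Motifs were searched in RefSeq windows, and 27645 of 27998 gene IDs matched GENCODE vM21. Scripts were tested on simulated data. No Pmaip1 window is printed. Some genes of the lists are not reported here by name.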

Additional observations from a re-analysis of the deposited data

Results flagged for a closer look

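The ganglion minus progenitor difference of some members differed between groups when the difference itself was tested (edgeR's quasi-likelihood test of the interaction, adjusted over 13670 genes). For the libraries labelled double null against Bax null, the values on the log2 scale were 1.53 for Bcl2l11, 0.91 for Bcl2, 0.89 for Bak1, 0.57 for Bbc3 and 0.32 for Mcl1. For the Bax het group relative to Bax null they were 1.12 for Bcl2l11, 0.86 for Bcl2 and 0.47 for Mcl1. Both comparisons use the same 2 Bax null libraries, which differ from the other 4 in depth and mitochondrial share, and the part of that in these values was not tested. Of the 8 results, 1 kept its call in every setting tried.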

How the results depend on the processing

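Of 33 called member results between genotypes, 11 kept direction and call in every setting tried, and 24 of 28 did between types. For the libraries labelled double null against Bax null, the 10 member calls were 5 with DESeq2, 30 with library totals, and 6 to 13 with a library left out. Against Bax het Atoh7 null the 6 calls were 1 with DESeq2 and 4 to 7 with a library left out. The 17 calls of the Bax het group relative to Bax null ranged over all settings from 13 to 21. Of the interaction calls, the 5 against Bax null were 2 with DESeq2, 3 without the shared barcodes and 3 to 5 with a library left out, the 3 of Bax het Atoh7 null were 1 (without its replicate 1) to 4, and the 0 between the Atoh7 null groups were 0 to 1, with 1 without the library labelled double null replicate 1. The replicate block gave 10, 7 and 16 calls in the order above. The labels share only numbers, and same-numbered libraries deviated together with correlations from -0.107 to 0.310. With library totals 7 results changed sign: Mcl1 (0.38) and Bbc3 (0.22) in progenitors and Bak1 in neurogenic cells (0.0038) for the libraries labelled double null against Bax null, and Mcl1 (0.11) and Bak1 (0.18) in progenitors and Bcl2 (0.24) and Mcl1 (0.18) in neurogenic cells for the Bax het group relative to Bax null. The scaling itself moves the median of all genes there. Over all genes, calls between the Atoh7 null groups varied most: 269 in progenitors (2 without Bax het Atoh7 null replicate 2, 655 without the library labelled double null replicate 1), 248 in ganglion cells (73 to 433), 206 in neurogenic cells (7 to 517), 138 in cones (62 to 294) and 144 in horizontal cells (18 to 267). Against Bax null, calls of the libraries labelled double null were 2649 in cones (1212 to 4649), 2617 in horizontal cells (1209 to 4488) and 5518 in neurogenic cells (3663 to 7880), and those of the Bax het group 2591 (1095 to 3835), 2705 (1058 to 3849) and 5499 (3516 to 7171). Interaction calls over all genes were 2144 (920 to 2184), 2080 (864 to 2472) and 14 (1 to 57). Depth limits Hrk and Pmaip1 most.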
